A study of Homo sapiens with 15 samples.

Results

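Host genes of small nucleolar RNAs (snoRNAs) and of microRNAs were examined in the human lung adenocarcinoma line A549 after exposure to dimethylamine vapour. A host was taken where a transcript cluster, the gene-level unit of the Affymetrix Human Clariom D array, was annotated with exactly 1 symbol that was GAS5, SNHG with a number, or MIR with letters or digits ending in HG. For symbols on several clusters, the cluster with the highest mean over the 15 arrays was kept. This gave 31 host genes on 34 clusters, 27 of microRNAs and 4 of snoRNAs, out of 33458 symbols with a cluster of their own and 135750 clusters in all. GAS5, SNHG1, MIR17HG, MIR31HG, MIR210HG and MIRLET7BHG, which are among the most studied hosts, were not among them because the annotation joins each of them with other symbols. MIR22HG was the only one of the 8 widely studied hosts looked for that was a member.

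The cells stood as a serum-free monolayer on a porous membrane with air above and medium below, and a tumour line took the place of lung epithelium. The vapour groups received dimethylamine vapour from above, at 14.9 ppm in the low dose (LD), 41.1 ppm in the mid dose (MD) and 81.7 ppm in the high dose (HD). Clean air controls (CA) had the air flow without the amine, and non-exposed controls (NEC) shared the plates but had no flow. A cycle was 60 min of exposure and 23 h of recovery, and 3 cycles were run within 72 h. Each group has 3 arrays, and each array is a pool of 2 wells, so that the tests rest on the spread between pools. The labels put all LD arrays on exposure plate 1, all MD arrays on plate 5 and all HD arrays on plate 6, with 1 CA and 1 NEC array on each of these plates.

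Many snoRNAs and microRNAs are not transcribed on their own but are cut out of the introns or exons of longer host transcripts. Spliced snoRNA hosts release the snoRNA from an intron, after which it guides the chemical modification of ribosomal or spliceosomal RNA, while the spliced host is often degraded by nonsense-mediated decay. MicroRNA hosts are cut in the nucleus by DROSHA and DGCR8, which release a hairpin precursor. DICER1 cuts this precursor in the cytoplasm, and the mature microRNA guides Argonaute proteins to messenger RNAs that pair with its seed. The array reports the host transcript and, on separate clusters, the small RNA gene. A probe for a microRNA gene also lies within the primary transcript, so the array cannot separate them.

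The mature microRNAs of the hosts that the results turn on are shown to identify what each host carries and which hosts share a seed. Sequences are those of RefSeq on GRCh38.p14, written 5′ to 3′, and the capitals mark the seed, bases 2 to 8. From MIR222HG, miR-221-3p and miR-222-3p share the seed GCUACAU, and miR-222-5p has another:
miR-221-3p: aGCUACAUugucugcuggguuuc
miR-222-3p: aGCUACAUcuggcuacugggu
miR-222-5p: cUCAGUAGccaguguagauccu
MIR181A1HG carries a pair that also shares a seed, ACAUUCA, and the same mature sequences are encoded a second time in MIR181A2HG:
miR-181a-5p: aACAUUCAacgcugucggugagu
miR-181b-5p: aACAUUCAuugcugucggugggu
MIR4435-2HG, MIR1915HG, MIR22HG and MIR762HG each carry 1 microRNA gene, with seeds found in no other host:
miR-4435: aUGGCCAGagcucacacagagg
miR-1915-3p: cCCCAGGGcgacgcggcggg
miR-22-3p: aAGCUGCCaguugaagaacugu
miR-762: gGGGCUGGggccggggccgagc
MIR99AHG and MIR4500HG lie on different chromosomes and share the let-7 seed, GAGGUAG:
let-7c-5p: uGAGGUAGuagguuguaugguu
miR-4500: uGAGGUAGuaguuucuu
Among 66 mature sequences of 41 microRNA genes in the hosts there were 57 seeds, 7 of them used more than once.

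Signals are the log2 values deposited after robust multi-array averaging. Their level was read against the array's 612 negative control clusters, whose median lay between 4.30 and 4.85 on the 15 arrays and averaged 4.67. Array medians lay between 4.47 and 4.55, with r from 0.974 to 0.984 between pairs of arrays. Markers of lung epithelium and A549 were above the negative controls in all groups in 8 of 8 cases, with a summed log2 signal of 117.75 to 123.13. Leukocyte markers were above in all groups in 4 of 6 cases (summed log2 signal 29.73 to 34.52, lowest in the LD arrays), fibroblast markers in 2 of 5 (27.35 to 30.83) and endothelial markers in 1 of 4 (14.64 to 18.08). Their part in the results was not tested. Over 17622 protein-coding genes the median difference of LD from CA was -0.15, so that differences from LD are read beside that shift. In whole-culture RNA, a change in the share of cells that express a gene and a change per cell cannot be told apart.

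Of the 31 hosts, 17 had a mean over all arrays above the negative controls, and 13 were above in all 5 groups, each group mean being set against the mean negative control median of that group's arrays. Probes differ in affinity, so the order of signals is not an order of RNA amounts. The highest signals were those of MIR4435-2HG at a mean log2 signal of 8.16, MIR3663HG at 8.01, MIR181A1HG at 7.54, MIR222HG at 7.12 and MIR99AHG at 7.01. Among the snoRNA hosts SNHG19, SNHG28 and SNHG33 had means of 6.61, 6.30 and 6.22, and SNHG23 was at 4.43, near the negative controls. At the low end 9 hosts were below the negative controls in all 5 groups, among them MIR181A2HG and MIR217HG, and 6 of the 31 did not exceed them on any array. Values of these hosts are at the level of the background, and the size of their differences is uncertain.

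**Figure D1:**
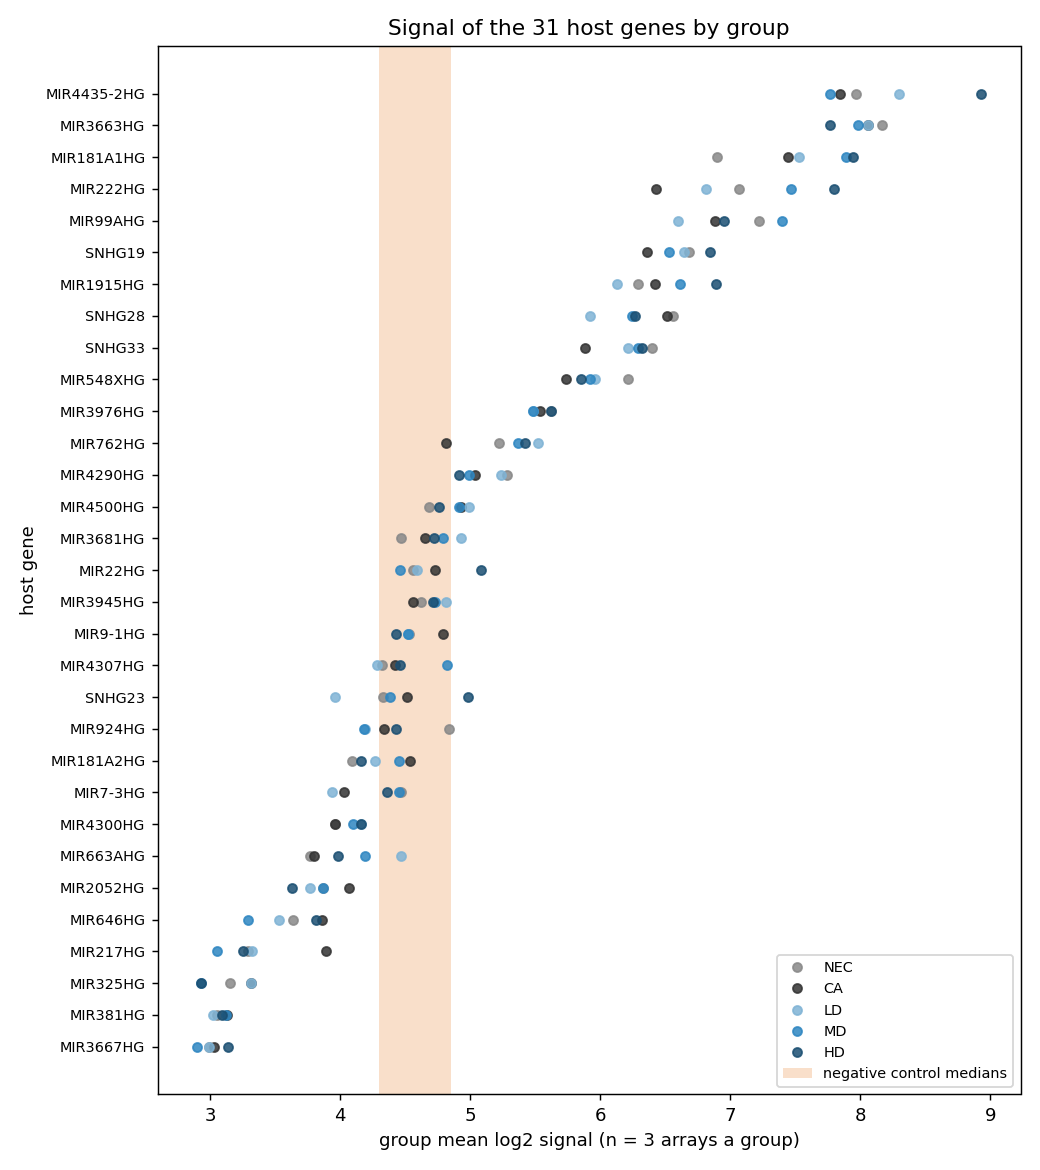
Group mean log2 signal (x axis, n = 3 arrays a group) of each of the 31 host genes (rows, ordered by mean over 15 arrays), coloured by group, with the range of the arrays' negative control medians (4.30 to 4.85) shaded. In 13 hosts each of the 5 group means exceeds the mean negative control median of that group's own arrays, and the HD point of MIR4435-2HG and of MIR222HG lies to the right of their CA point.

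MIR222HG rose in HD. The gene lies on the minus strand of chromosome X from 45745214 to 45770267 (GRCh38.p14) and is the primary transcript of miR-221 and miR-222, which are known for repressing the cell cycle inhibitor p27, encoded by CDKN1B. Its log2 signal was 6.49, 6.44 and 6.36 in CA, and 7.50, 7.94 and 7.97 in HD. All HD arrays lay above all CA arrays by at least the width of either group. The mean was 6.43 ± 0.07 (SD, n = 3) in CA and 7.80 ± 0.26 in HD, a difference of 1.38 (SE 0.19), or 2.60-fold (limma, Benjamini-Hochberg adjusted p = 0.0164 over all clusters). With the exposure plate as a block the difference was 1.31 (SE 0.24) and the adjusted p = 0.148, so that the call was lost while the size stayed. Of the 6 arrays compared, leaving out HD replicate 1 kept the call (adjusted p = 0.0256). Without HD replicate 2 or 3, or CA replicate 1, 2 or 3, the difference was 1.29 to 1.41 and the adjusted p between 0.0637 and 0.118.

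The intermediate doses lay between these levels. MIR222HG was at 6.79, 6.95 and 6.70 in the LD arrays and at 7.53, 7.51 and 7.37 in the MD arrays. LD lay wholly above CA, and MD wholly above LD, while MD and HD overlapped. The slope over CA, LD, MD and HD was 0.168 log2 units per 10 ppm (SE 0.0236, limma, adjusted p = 0.0170), and 0.193 with the plate block (adjusted p = 0.0648). Leaving out each of the 12 arrays in turn gave slopes of 0.161 to 0.192, and the call was lost without HD replicate 2 (adjusted p = 0.0874), HD replicate 3 (0.0698) or CA replicate 1 (0.0555). By pairs, MD minus CA was 1.04 (SE 0.19, limma adjusted p = 0.336) and LD minus CA 0.39 (SE 0.19, adjusted p = 0.796), neither past the threshold. HD minus LD was 0.99 (adjusted p = 0.0949) and HD minus MD 0.33 (adjusted p = 1), or 0.17 (SE 0.31) with the plate block.

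The NEC arrays, of cells with no flow, also lay above the CA arrays for MIR222HG. They were at 7.07, 6.86 and 7.26, above all CA arrays and below all MD and HD arrays, overlapping LD. The difference of NEC from CA was 0.64 (SE 0.19, limma adjusted p = 0.803). Set against NEC in place of CA, the difference of HD was 0.74 (adjusted p = 0.176), that of MD 0.40 (adjusted p = 0.766) and that of LD -0.25 (adjusted p = 0.851). Within plates the mean of the dose arrays minus the CA array of the same plate was 0.33 on plate 1 (LD), 1.03 on plate 5 (MD) and 1.45 on plate 6 (HD). Minus the NEC array of the same plate it was -0.26, 0.61 and 0.54. The control chosen thus moved the size of the HD difference from 1.38 to 0.74, with the direction kept.

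**Figure D2:**
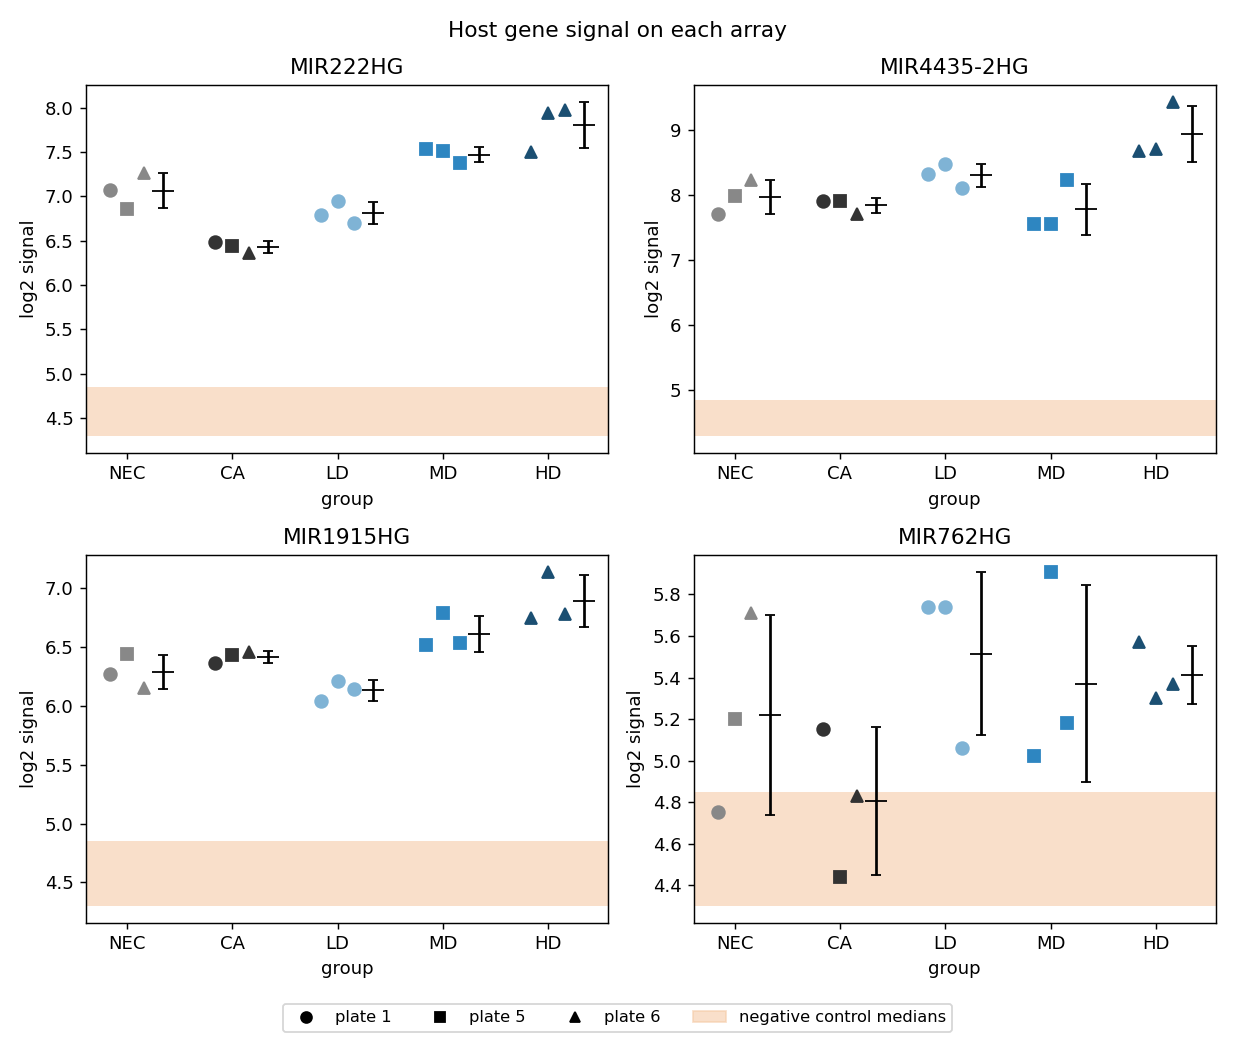
Log2 signal (y axis) of MIR222HG, MIR4435-2HG, MIR1915HG and MIR762HG on each of the 15 arrays by group (x axis), with marker shapes for exposure plates, the mean and SD of 3 arrays beside the points, and the range of negative control medians shaded. In MIR222HG the CA arrays (6.36 to 6.49) are the lowest and the HD arrays (7.50 to 7.97) among the highest, with NEC (6.86 to 7.26) between them.

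The clusters of the microRNA genes inside MIR222HG were dim. MIR221 was at 4.23, 4.32 and 3.74 in CA, 5.92, 4.50 and 5.02 in LD, 4.38, 5.49 and 4.76 in MD, 4.95, 5.36 and 5.02 in HD and 4.52, 4.94 and 4.83 in NEC. Its CA arrays were the lowest of all 15, and it exceeded the negative controls on 9 arrays. The difference of HD from CA was 1.01 (SE 0.33, limma adjusted p = 0.546), and that of LD was of like size, 1.05 (SE 0.33, adjusted p = 0.706). Group means of MIR221 were 4.1 in CA, 4.76 in NEC and 5.11 in HD, so HD lay closer to NEC than to CA.

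MIR222 was at 3.88, 3.52 and 3.96 in CA and at 5.16, 4.77 and 5.14 in HD, with no overlap. The NEC arrays were at 3.94, 4.63 and 4.61. Group means were 3.79 in CA, 4.39 in NEC and 5.02 in HD, so HD lay less far above NEC than above CA. MIR222 exceeded the negative controls on 5 arrays. The difference of HD from CA was 1.24 (SE 0.33, limma adjusted p = 0.349), with MD at 0.53 and LD at 0.65 above CA and a slope of 0.128 per 10 ppm (SE 0.0381, adjusted p = 0.365). Neither microRNA cluster passed the adjusted threshold in any comparison, and their CA levels were below the negative controls, where the size of a difference is uncertain. The RNA was purified on RNeasy Mini columns, which are made for longer RNAs and retain mature microRNAs poorly, and no mature microRNA was measured apart from its precursor. The effect of the columns on these values was not tested.

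**Figure D3:**
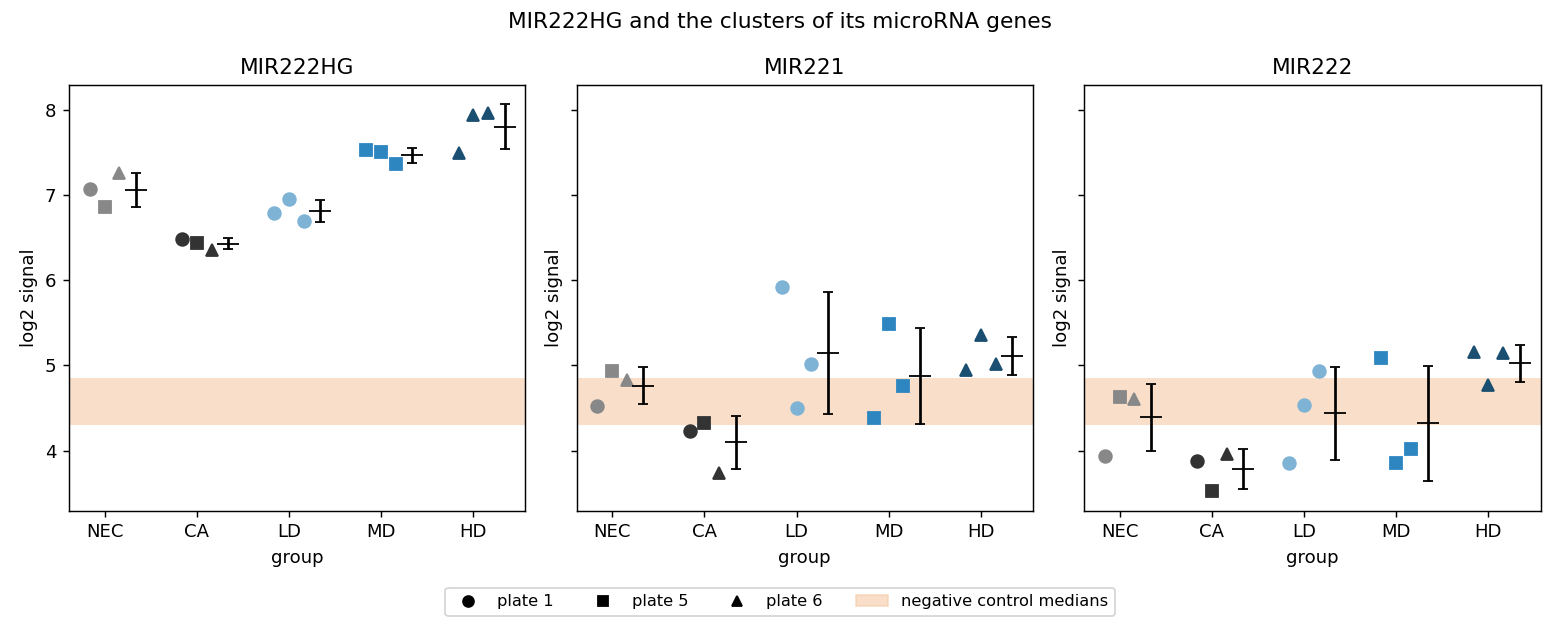
Log2 signal (y axis) of the MIR222HG, MIR221 and MIR222 clusters on each array by group (x axis), with plate shapes, mean and SD of 3 arrays, and the negative control medians shaded. The host lies at 6.36 or above on all arrays, while both microRNA clusters scatter around the shaded range, with the CA arrays lowest for MIR221.

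MIR4435-2HG had its highest signal on the HD arrays. This long non-coding RNA, transcribed on chromosome 2 from 111195866 to 111495161 (GRCh38.p14, minus strand), is also known as MORRBID and in mouse acts on the lifespan of myeloid cells. Its signal was 7.90, 7.91 and 7.71 in CA and 8.67, 8.70 and 9.43 in HD. The MD arrays were at 7.55, 7.55 and 8.23, the LD arrays at 8.32, 8.47 and 8.11, and the NEC arrays at 7.71, 7.98 and 8.23. All HD arrays exceeded all other arrays, but the MD arrays overlapped CA, so the order did not follow the concentration.

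The difference of MIR4435-2HG in HD from CA was 1.09 (SE 0.25), or 2.13-fold (limma, adjusted p = 0.223), and 1.03 (SE 0.32) with the plate block. The difference of HD from MD was 1.16 (SE 0.25, adjusted p = 0.929), from NEC 0.96 (adjusted p = 0.178) and from LD 0.63 (adjusted p = 0.475). MD minus LD was -0.53 (adjusted p = 0.58). None of these passed the adjusted threshold, and the slope, at 0.110 per 10 ppm, had an adjusted p of 0.465. On plate 6 the HD mean exceeded the CA array by 1.22 and the NEC array by 0.71. Its microRNA gene MIR4435-2 had no cluster of its own symbol.

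MIR1915HG, on chromosome 10 from 21492658 to 21497260, had narrow spreads within groups. Its arrays were at 6.36, 6.43 and 6.46 in CA, 6.04, 6.21 and 6.14 in LD, 6.52, 6.79 and 6.53 in MD, 6.75, 7.14 and 6.78 in HD and 6.27, 6.44 and 6.15 in NEC. The groups LD, CA and MD did not overlap and stood in that order, and HD overlapped only MD. The difference of HD from LD was 0.76 (SE 0.18, limma adjusted p = 0.196) and that of HD from CA 0.48 (SE 0.18, adjusted p = 0.675). The slope was 0.0764 per 10 ppm (SE 0.0232, adjusted p = 0.384), or 0.0462 (SE 0.0294, adjusted p = 0.825) with the plate block. Its microRNA cluster MIR1915 had group means between 4.68 and 5.13, and HD minus CA there was -0.13 (SE 0.22), or -0.21 (SE 0.29) with the plate block.

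MIR762HG and MIR181A1HG had wider spreads. MIR762HG was at 5.15, 4.44 and 4.83 in CA and at 5.57, 5.30 and 5.37 in HD, with no overlap, and HD minus CA was 0.61 (SE 0.29, limma adjusted p = 0.788), or 0.35 (SE 0.36) with the plate block. Its LD arrays, at 5.74, 5.74 and 5.06, overlapped CA and gave a difference of 0.71 from CA (SE 0.29, adjusted p = 0.744). Its NEC arrays, at 4.75, 5.20 and 5.71, overlapped both CA and HD. HD minus NEC was 0.20 (SE 0.29, limma adjusted p = 0.928), and on plate 6 the HD mean minus the NEC array was -0.29. MIR181A1HG carries MIR181A1 and MIR181B1, whose mature forms are known for roles in blood cell development. Its arrays were at 7.77, 6.73 and 7.83 in CA, 7.40, 8.15 and 8.25 in HD and 6.52, 6.65 and 7.53 in NEC, so that the groups overlapped. HD minus CA was 0.49 (SE 0.37) and -0.01 (SE 0.40) with the plate block, while HD minus NEC was 1.04 (adjusted p = 0.419).

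Within plate 6 the HD mean of MIR181A1HG exceeded the CA array by 0.11 and the NEC array by 0.41. Of the microRNA clusters of this host, MIR181B1 had a mean of 7.35 ± 0.38 (SD, n = 3) in CA and 7.14 ± 0.30 in HD, and its HD minus CA was -0.21 (SE 0.25), or -0.39 (SE 0.25) with the plate block. MIR181A1 averaged 4.50 over the arrays, near the negative controls, and its HD minus CA was 0.66 (SE 0.33, limma adjusted p = 0.806). The second copy, in MIR181A2HG on chromosome 9, had a host signal of 4.54 in CA and 4.16 in HD, below the negative controls.

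Of the 4 snoRNA hosts, none was called in any comparison (limma, adjusted p below 0.05). SNHG23 had an unadjusted p below 0.05 in HD against LD, where 4.75% of all clusters were higher, and SNHG28 in LD against NEC. The share of all clusters below that p in at least 1 comparison was not counted. SNHG19, on chromosome 16 from 2154782 to 2155358, was at 6.01, 6.37 and 6.69 in CA and at 6.62, 7.20 and 6.71 in HD. The groups overlapped, and HD minus CA was 0.49 (SE 0.26, adjusted p = 0.832), or 0.22 (SE 0.31) with the plate block. SNORD60, the box C/D snoRNA that lies inside it, guides the methylation of ribosomal RNA. Its cluster was at 12.54, 13.43 and 13.42 in CA, 13.25, 13.17 and 12.67 in LD, 13.03, 13.16 and 13.87 in MD, 13.83, 14.14 and 13.51 in HD and 12.79, 12.99 and 12.58 in NEC.

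All HD arrays of SNORD60 lay above all CA arrays, and the NEC arrays were among the lowest. HD minus CA was 0.70 (SE 0.29, limma adjusted p = 0.72), and HD minus LD was 0.80 (SE 0.29, adjusted p = 0.425), or 0.46 (SE 0.45) with the plate block. SNHG28 had means of 6.51 ± 0.22 in CA and 6.27 ± 0.47 in HD, and SNHG33 of 5.88 ± 0.72 and 6.32 ± 0.47 (SD, n = 3), with overlapping arrays in both cases. The plate block moved their differences of HD from CA from -0.23 to -0.38 (SNHG28) and from 0.44 to 0.72 (SNHG33). For SNHG28, named here after its values were seen, LD minus NEC was -0.64 (SE 0.29, adjusted p = 0.717). SNHG23, which RefSeq lists as an older name of the imprinted gene MEG8 on chromosome 14, had its unadjusted p below 0.05 in HD against LD. Its arrays were at 4.10, 3.46 and 4.32 in LD and 5.16, 5.55 and 4.21 in HD, which overlapped, with HD minus LD at 1.02 (SE 0.38, adjusted p = 0.442). These doses lie on different plates, and with the plate block the difference was 0.60 (SE 0.60, adjusted p = 0.845). Both means were close to or below the negative controls. MEG8 holds the SNORD113 and SNORD114 families, whose members are near copies of each other, so their clusters may share signal.

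MIR3663HG and MIR99AHG were well above the negative controls and did not differ beyond their spread between HD and CA. MIR3663HG had means of 8.06 ± 0.34 in CA and 7.77 ± 0.35 in HD (difference -0.28, SE 0.28, or -0.53, SE 0.35, with the plate block), and its MIR3663 cluster was at 7.57 and 7.47. MIR99AHG, the host of miR-99a, let-7c and miR-125b, had means of 6.88 ± 0.48 in CA and 6.95 ± 0.29 in HD (difference 0.07, SE 0.28, or 0.48, SE 0.30, with the plate block). Its 3 microRNA clusters averaged 3.35, 3.67 and 3.43 over the arrays, all below the negative controls. MIR22HG, whose microRNA miR-22 is made in many tissues, was near the negative controls at 4.72, 4.56 and 4.91 in CA and 5.17, 4.95 and 5.12 in HD, a difference of 0.35 (SE 0.28, limma adjusted p = 0.924), or 0.10 (SE 0.34) with the plate block. Among hosts whose HD or CA mean was above the negative controls, the other negative differences of HD from CA were MIR9-1HG at -0.37, SNHG28 at -0.23, MIR4500HG at -0.17 and MIR4290HG at -0.14, with none past the adjusted threshold. With the plate block MIR4500HG was at -0.55 and MIR4290HG at -0.06.

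Outside the rule for naming, MIR217HG and MIR663AHG were chosen after their values were seen. MIR217HG, the host of miR-217 and miR-216, was below the negative controls on all arrays. Its CA arrays, at 3.99, 4.13 and 3.54, were higher than most others, and HD, MD, LD and NEC differed from CA by -0.64, -0.84, -0.56 and -0.60 (SE 0.24 each, limma adjusted p between 0.675 and 0.892). These 4 differences share the 3 CA arrays. MIR663AHG was above the negative controls on 1 array, and its LD minus CA was 0.67 (SE 0.26, adjusted p = 0.731).

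Over the hosts as a group, HD against CA gave a median difference of 0.09 (lowest -0.64, highest 1.38). The median was -0.01 over all clusters and 0.03 over the 36176 clusters with exactly 1 symbol. A total of 20 of 31 differences were positive. One host was called by adjusted p, MIR222HG, beside 0.0435% of all clusters (59 of 135750). At an unadjusted p below 0.05, 3 hosts were higher and 1 lower, beside 3.08% and 3.3% of all clusters. Of the 36176 clusters with exactly 1 symbol, 1695 were higher and 1043 lower. The study's own criteria (fold change above 2 and unadjusted p below 0.05) took in 2 hosts, MIR222HG and MIR4435-2HG, beside 0.821% of all clusters. In the fit with a plate block no host was called, beside 0.00737% of all clusters, and 5 had an unadjusted p below 0.05, beside 7.56%.

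**Figure D4:**
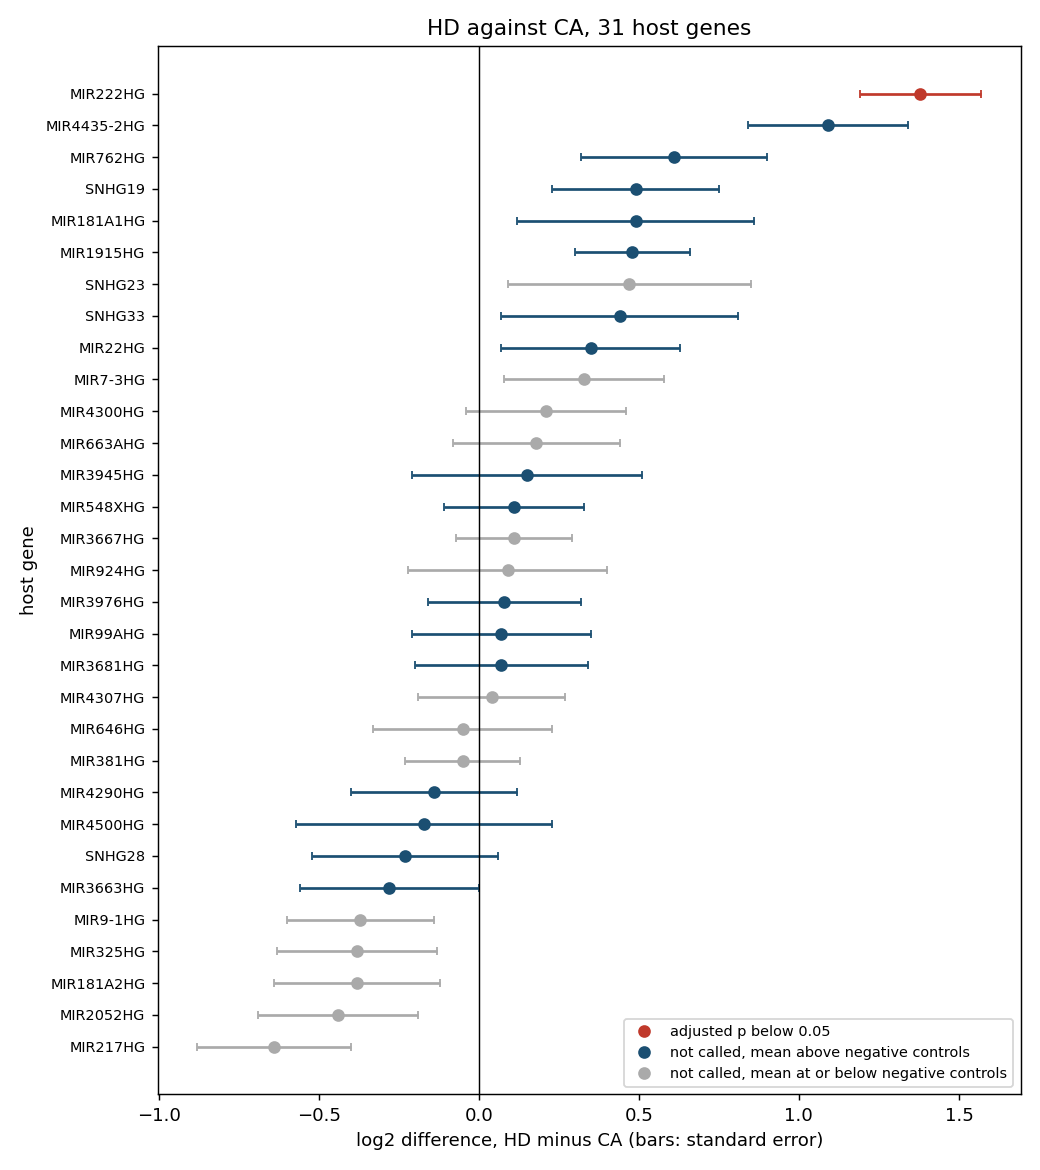
Log2 difference of HD from CA (x axis) with its standard error for each of the 31 host genes (rows), from the fit to 15 arrays. MIR222HG (1.38) is the host with an adjusted p below 0.05, MIR4435-2HG (1.09) follows, and the other 29 lie between -0.64 and 0.61.

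In the comparisons of the lower doses and of NEC with CA no host passed the adjusted threshold. In MD against CA the median was -0.02, no host was called (0% of all clusters, limma), 1 was higher and 1 lower at an unadjusted p below 0.05 (2.81% and 3.37% of all clusters), and MIR222HG met the criteria of the study (0.525% of all clusters). In LD against CA the median was -0.04, no host was called (0%), and 2 were higher and 1 lower at an unadjusted p below 0.05 (2.71% and 3.63%). In NEC against CA, which asks what the flow of air alone changed, the median was -0.03, none was called (0%), and 1 was higher and 1 lower (2.98% and 2.46%). With the plate block 3 hosts in MD, 1 in LD and 3 in NEC against CA had an unadjusted p below 0.05, beside 5.3%, 6.64% and 5.96% of all clusters, and none was called. These comparisons share the 3 CA arrays, so they are not independent of each other.

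Between doses, no control array enters the difference, but each dose lies on a plate of its own. HD against LD gave 4 hosts higher and 0 lower at an unadjusted p below 0.05, beside 4.75% and 4% of all clusters, and the 4 were MIR222HG, SNHG23, MIR1915HG and MIR4435-2HG. Named genes leaned the same way in HD against LD. Of 36176 clusters with exactly 1 symbol, 3384 were higher and 790 lower, and of 17622 protein-coding genes, 2275 and 264. SNHG23 alone also had a fold change above 2 there (1.08% of all clusters), and no host was called by adjusted p, beside 0.0155% of all clusters. With the plate block, in which the CA and NEC arrays link the plates, SNHG23 and MIR4435-2HG no longer had an unadjusted p below 0.05 and SNHG23 was under a fold of 2, while the count of hosts stayed at 4, beside 8.19% of all clusters. In HD against MD, MIR4435-2HG and MIR22HG were higher and 0 lower (2.25% and 2.17%), and none was called (0%). In MD against LD, 4 hosts were higher and 1 lower (4.54% and 4.03%), and none was called (0%). Of the 36176 clusters with exactly 1 symbol, 2764 were higher and 771 lower in MD against LD. The largest difference among these hosts was that of MIR99AHG, at 0.80 (SE 0.28, limma, adjusted p = 0.438). With the plate block MIR99AHG was at 0.63 (SE 0.39) and no longer had an unadjusted p below 0.05. With the plate block 2 hosts had an unadjusted p below 0.05 in HD against MD and 2 in MD against LD, beside 5.23% and 6.02% of all clusters. MIR22HG in HD against MD was then at 0.39 (SE 0.44).

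On the slope with concentration, 1 host was called, MIR222HG, beside 0.0744% of all clusters. At an unadjusted p below 0.05, 3 hosts had a positive and 0 a negative slope, beside 3.93% and 3.61% of all clusters, and these were MIR222HG, MIR4435-2HG and MIR1915HG, the last of which was not among them with the plate block. With that block no host was called, beside 0.0125% of all clusters, and 4 had an unadjusted p below 0.05, beside 7.05%. The median slope over the 31 hosts was 0.0117 log2 units per 10 ppm, beside -0.000125 over all clusters. It was 0.00844 over the 36176 clusters with exactly 1 symbol and 0.0118 over protein-coding genes, so the hosts lay near named genes. Of the clusters with exactly 1 symbol, 2456 had a positive and 945 a negative slope at an unadjusted p below 0.05.

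RefSeq placed 88 snoRNA and microRNA genes inside the 30 hosts that held any, and none inside SNHG28. Leaving out MIR5583-1, which lies on the strand opposite to its host MIR924HG, 79 had a cluster of their own. Of these 79, 30 had a mean above the negative controls. Apart from SNORD60, all snoRNAs among the 79 belong to the SNORD113 and SNORD114 families inside SNHG23, so counts over the 79 are not counts of separate loci. None of the 79 was called in HD against CA (limma), and their median difference was 0.01, or -0.07 with the plate block. At an unadjusted p below 0.05, 7 were higher and 0 lower, beside 3.08% and 3.3% of all clusters. With the plate block 13 had an unadjusted p below 0.05, beside 7.56% of all clusters. The 7 were MIR221, MIR222, SNORD60, MIR889 and 3 of the SNORD114 family. MIR889, inside MIR381HG and singled out after its values were seen, was at 3.86, 3.09 and 2.72 in CA and 4.88, 4.23 and 4.03 in HD, a difference of 1.16 (SE 0.37, adjusted p = 0.54), while its host was below the negative controls with HD minus CA at -0.05 (SE 0.18). MIR889 exceeded the negative controls on 1 array.

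Genes for the proteins that make and use these RNAs were not called in HD against CA. Of the snoRNP core, which packages snoRNAs, 6 of 8 genes were measured, with a median difference of 0.26 and none called (limma). The median was 0.11 with the plate block. At an unadjusted p below 0.05, NOP10, named for its p after the values were seen, was the single gene and was higher, by 0.57 (adjusted p = 0.75). Of the nonsense-mediated decay factors, 7 of 10 were measured, with a median of 0.18, or -0.05 with the plate block. None was called, and 0 had an unadjusted p below 0.05. Of the microRNA processing genes, 10 of 10 were measured, with a median of -0.10 (-0.17 with the plate block) and none called. Among these AGO3, an Argonaute protein, had an unadjusted p below 0.05 and was named for it, and was at -0.59 in HD (adjusted p = 0.769) and -0.84 in MD. With the plate block neither NOP10 nor AGO3 had an unadjusted p below 0.05 in HD against CA, which 7.56% of all clusters had. Of the protein-coding genes that hold snoRNAs, 156 of 231 were measured, with a median of 0.03 in HD, or -0.08 with the plate block. None was called, and 9 were higher and 4 lower at an unadjusted p below 0.05, beside 3.08% and 3.3% of all clusters. With the plate block 6 had an unadjusted p below 0.05, beside 7.56%.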

How the data were processed

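The authors normalised 15 Clariom D arrays by robust multi-array averaging in the Transcriptome Analysis Console, and deposited log2 signals, which were used as given. RNA was taken with RNeasy Mini columns and labelled with the whole transcript kit. Of 138745 rows, 2995 control clusters were left out. Clusters were named from the platform annotation. Of the 31 hosts, 29 were matched to RefSeq by Entrez identifier, 1 by symbol and 1 by older symbol. Of the 88 encoded RNAs, 32 were on the host's strand and 1 opposite, and strand was not given for 55, so these, and snoRNAs in protein-coding genes, were placed by coordinates alone.

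A model with 5 groups was fitted to all clusters (lmFit and eBayes, limma 3.58.1, R 4.3.3, with version 1.17.8 of the data.table package), with two-sided tests, 10 residual and 6.32 prior degrees of freedom and Benjamini-Hochberg adjustment over 135750 clusters. The slope was fitted to the 12 arrays other than NEC. The fit was tested on simulated data. The number of arrays limits the precision.

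Named hosts were those with an adjusted p below 0.05, or an unadjusted p below 0.05 with a fold above 2, in any comparison, the 6 largest differences each way in HD against CA among hosts above the negative controls (only 5 were negative), the 6 brightest in CA, and 8 widely studied hosts where members. Hosts, lists and rules were chosen with earlier results of these data known.

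The labels give CA and NEC arrays shared exposure plates, so the plate pairs them. Their deviations from the group means correlated at r of 0.261, 0.0699 and 0.204 over 17622 protein-coding genes. The described layout has 4 vapour cultures per plate, fewer than 3 pools of 2 wells need, so a plate number may cover more than 1 plate. CA and NEC replicates were numbered in accession order.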

Additional observations from a re-analysis of the deposited data

How the results depend on the processing

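The alternatives were the plate as a block (for pairs of doses also the replicate number), only the compared groups in the fit, quantile normalisation, median centring, an intensity trend with a robust prior, leaving out dim clusters, the mean of all clusters of a symbol, NEC in place of CA, and leaving out each array. The slope has no version with only the compared groups, since its fit holds no others. Quantile normalisation, centring, the trend and the mean of a symbol's clusters changed no count or median listed here by more than the limits used (1.5 times for counts, 1 SD between replicates for medians). The cause of the changes below was not tested.

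With the replicate block by plate, the call of MIR222HG was lost in HD against CA (1.31, adjusted p = 0.148) and on the slope (0.193, adjusted p = 0.0648), leaving 0 hosts called in each. The hosts' median became 0.08 in MD, 0.09 in LD and 0.0261 on the slope. At an unadjusted p below 0.05, LD against CA had 1 host, beside 6.64% of all clusters, and in HD against CA the counts were 13 encoded RNAs, 6 related genes and 3 joint clusters, beside 7.56% of all clusters. For pairs of doses the plate block was added after seeing the data, since each dose lies on its own plate: in MD against LD the hosts' median became 0.04 and 2 hosts had an unadjusted p below 0.05, and SNHG23 in HD against LD went from 1.02 to 0.60. The block changed no other call. The dose groups share only a number, with r between -0.146 and 0.152, and a block of that number left HD against LD for MIR222HG at 0.99 (adjusted p = 0.264). With only the compared groups 0 hosts were called in HD against CA (MIR222HG 1.38, adjusted p = 0.196), and 1 had an unadjusted p below 0.05 in HD against MD. With NEC in place of CA 0 were called in HD (MIR222HG 0.74, adjusted p = 0.176), 4 had an unadjusted p below 0.05 in MD, and MIR217HG in LD turned to 0.04. Without dim clusters, which leaves 17 hosts, the medians were 0.17 in MD, 0.2 in LD, 0.11 in NEC and 0.0314 on the slope. Counts at an unadjusted p below 0.05 were then 1 each in MD, LD and NEC, 3 in MD against LD and 3 encoded RNAs in HD. For the fits here without the plate block, shares of all clusters were not counted, so their counts cannot be set against one.

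Leaving out each array in turn gave hosts' medians of 0 to 0.18 in HD against CA, -0.02 to 0.09 in MD, -0.11 to 0 in LD, -0.06 to 0.08 in NEC, -0.05 to 0.1 in HD against MD and 0.00582 to 0.0216 on the slope. The hosts called ranged from 0 to 1 in HD against CA (0 without HD replicate 2 or 3 or any CA replicate) and from 0 to 1 on the slope (0 without HD replicate 2 or 3 or CA replicate 1). Counts at an unadjusted p below 0.05 ranged from 2 to 5 in MD (4 or more without MD replicate 1 or CA replicate 2 or 3), 1 to 2 in LD (1 without LD or CA replicate 2), 1 to 5 in NEC (1 without NEC or CA replicate 1, 4 without CA replicate 2, 5 without NEC replicate 3), 3 to 7 in HD against LD (most without LD replicate 1), 1 to 3 in HD against MD (1 without MD replicate 1 or 2), 2 to 4 in MD against LD (2 without LD replicate 1, 3 without LD replicate 2 or MD replicate 1 or 2) and 3 to 5 on the slope (5 without LD replicate 1 or HD replicate 1 or 2). In HD against CA they ranged from 8 to 18 for related genes and from 3 to 6 for joint clusters, lowest without HD replicate 3 in both. Shares of all clusters were not counted with an array left out, so these counts have none beside them.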

Other observations

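The 46 clusters that join a host symbol with other symbols were measured but cannot be assigned to 1 gene. Of these, 34 had a mean above the negative controls. Their median difference of HD from CA was 0.13, or 0.02 with the plate block, and the differences without it ran from -0.59 to 0.74. None was called (limma, adjusted p below 0.05). At an unadjusted p below 0.05, 6 were higher and 0 lower, beside 3.08% and 3.3% of all clusters. With the plate block 3 had an unadjusted p below 0.05, beside 7.56%. The median was -0.04 in MD, 0.02 in LD and -0.01 in NEC. In HD against MD 6 were higher and 2 lower at an unadjusted p below 0.05, beside 2.25% and 2.17% of all clusters, and 2 with the plate block, beside 5.23%.

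Genes that miR-221 and miR-222 are known to repress were looked up after the MIR222HG values were seen, and 4 had a cluster with their symbol alone. CDKN1B was at 10.41 ± 0.29 in CA and 10.35 ± 0.16 in HD (SD, n = 3), with HD minus CA at -0.06 (SE 0.27). The differences of CDKN1C, TIMP3 and BCL2L11 were 0.05 (SE 0.19), -0.07 (SE 0.21) and 0.27 (SE 0.25). TIMP3 was above the negative controls in no group and on 1 array, so the size of its difference is uncertain. Protein levels were not measured.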
